A study of Sus scrofa with 6 samples.

Results

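The genes described here control the shape of mitochondria and the upkeep of their DNA (mtDNA). They were chosen by symbol for their known role: MFN1, MFN2 and OPA1 for fusion, DNM1L, FIS1 and MFF for fission, and TFAM, POLG, POLG2 and TWNK for mtDNA. All 10 were found, each once, among the 30376 genes of the series' expression table, and all 10 had enough reads to be tested. The data are poly(A) RNA of pig embryos at the 4-cell stage, and the stated question of the series is how heat affects activation of the embryonic genome. Oocytes were activated electrically, by 2 pulses of 120 V lasting 60 µs each, and then kept for 4 days in PZM-5 medium with 4 mg/mL BSA under mineral oil and 5% CO2. The 3 control libraries came from embryos held at 38.5 °C, with the genotype field WT. The 3 high-temperature libraries, also called heated libraries, came from embryos held at 41.5 °C, with the genotype field HT, which repeats the group's name. About 300 embryos went into a library per the labels' protocols, and no label ties a replicate to its own culture. The p-values therefore rest on library-to-library spread alone, part of which may be technical.

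Mitochondria of a cell join and divide continually. The mitofusins MFN1 and MFN2 are GTPases that join outer membranes, and OPA1 joins inner membranes and holds the cristae in shape. DNM1L (also called DRP1) is the dynamin-like GTPase that pinches mitochondria apart, and MFF and FIS1 are outer-membrane proteins, MFF being a main receptor that recruits DNM1L. TFAM packs mtDNA into nucleoids and starts its transcription, POLG copies it, POLG2 is the accessory subunit of that polymerase, and TWNK is the helicase that opens the strands. In mammals the mitochondria of the early embryo come from the oocyte, and their mtDNA is copied little during the first cleavages.

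The libraries held 28114005 to 30079385 counted reads. TMM scaling factors, which correct for a few genes taking many reads, ran from 0.865 in control replicate 1 to 1.09 in high-temperature replicate 3. Oocyte and early embryo markers were present: all 14 averaged at least 1 CPM (counts scaled to a common library total after TMM), and their sum was 4075 to 4184 CPM in control libraries and 3602 to 3941 CPM in heated libraries. This list holds oocyte and early embryo genes together, so it does not tell the 4-cell stage from the oocyte. Markers of cumulus and granulosa cells (13 genes) summed to 18.1 to 21.4 CPM in control libraries and 18.6 to 20.6 CPM in heated libraries. Of these 13, 4 averaged at least 1 CPM: INHBA (7.95), VCAN (7.34), TNFAIP6 (1.998) and STAR (1.56). FSHR, FOXL2, INHA, AMH and CYP11A1 had 0 reads in all 6 libraries. Markers of stromal and blood cells (8 genes) summed to 12.3 to 15.8 CPM and 12.5 to 12.6 CPM. Of these 8, 4 averaged at least 1 CPM: PECAM1 (5.12), COL1A2 (2.60), PDGFRA (2.35) and PTPRC (1.30).

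The 10 genes differed widely in level. On the FPKM scale, which divides by gene length and allows genes to be compared, TFAM stood first at a mean of 223 FPKM over the 6 libraries, above 99% of all genes in the table. MFF followed at 72.3 FPKM, then MFN1 at 27.7, OPA1 at 17.3, TWNK at 12.7, FIS1 at 9.40, POLG2 at 7.95 and DNM1L at 7.85 FPKM. POLG at 0.835 FPKM and MFN2 at 0.177 FPKM were last. So the fission receptor MFF was more abundant per length than the fission GTPase DNM1L, and the accessory subunit POLG2 more than the catalytic subunit POLG, in each of the 6 libraries. The libraries of TFAM and MFF, of MFF and MFN1, of OPA1 and TWNK, and of DNM1L and POLG did not overlap. MFN1 and OPA1 overlapped over all libraries although MFN1 was the higher within each of the 6, and likewise POLG and MFN2. TWNK, at 11.6 to 13.5 FPKM, lay above POLG2 (5.72 to 10.3 FPKM) and DNM1L (5.85 to 9.98 FPKM) without overlap. FIS1, which ranged from 3.16 to 15.7 FPKM, overlapped each of these 3 genes, and POLG2 and DNM1L overlapped each other.

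**Figure D1:**
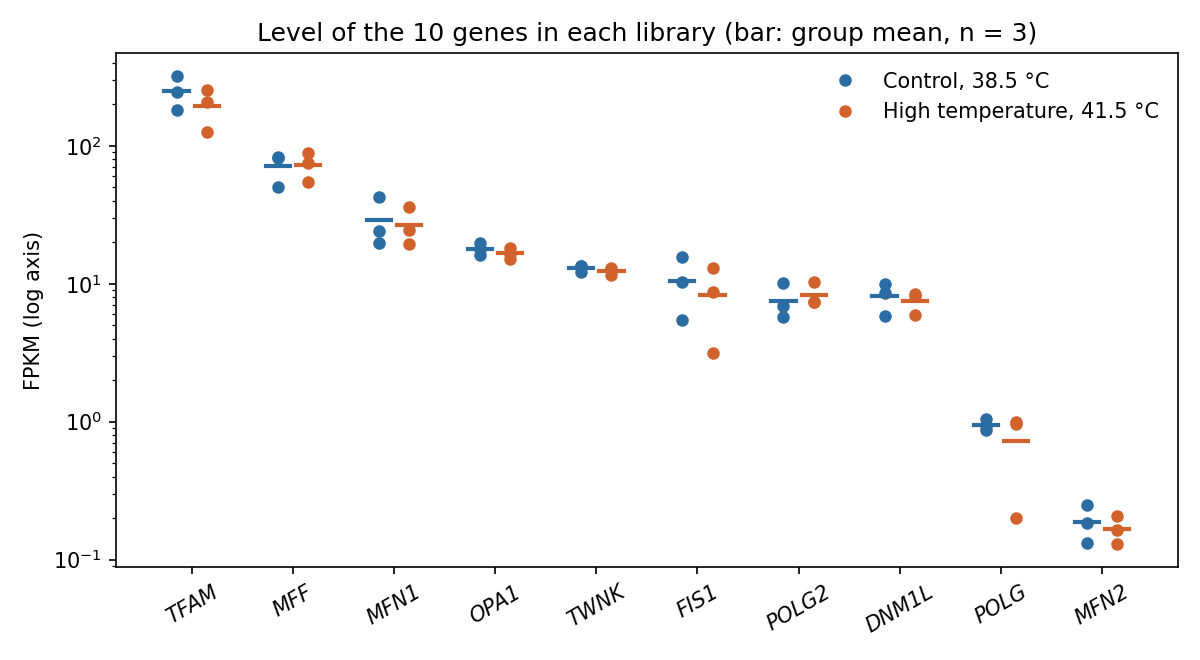
FPKM (log axis) of the 10 genes in the 3 control and 3 high-temperature libraries, ordered by mean level; points are libraries and bars are group means. TFAM lies highest at 126 to 319 FPKM and MFN2 lowest at 0.130 to 0.247 FPKM, and within each gene the control and high-temperature points lie close to one another or interleave, except for the single POLG library at 0.199 FPKM.

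None of the 10 genes passed the test for a difference between temperatures. By the edgeR quasi-likelihood test 0 of 10 were called at an adjusted p below 0.05, against 0% of the 16056 genes tested, and 0 of 10 had an unadjusted p below 0.05, against 1.85% of all. DESeq2 also called 0 of 10, against 0.0202% of the genes it tested. The log2 fold change, high temperature against control, was below 0 for 9 of the 10 and above 0 for POLG2, compared with 52.5% below 0 among all genes tested. It was below 0 for 8 of the 10, with MFF also above 0, when libraries were scaled by their totals alone. With control replicate 1 or high-temperature replicate 1 left out it was also below 0 for 8 of the 10. On the log2(FPKM + 1) scale it was below 0 for 6 of 8 members tested, and on log2(TPM + 1) for 7 of 9. The median over the 10 was -0.23 beside -0.02 over all genes tested. Scaled by library totals alone these were -0.11 and 0.08, and on the log2(FPKM + 1) scale -0.08 and 0.03. With 1 library left out in turn the median over the 10 ranged from -0.38 (high-temperature replicate 1 left out) to -0.09 (high-temperature replicate 3 left out), and it was -0.12 with control replicate 1 left out. In bulk libraries of whole embryos, fewer embryos with a transcript and less of it per embryo cannot be told apart.

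The 95% interval of the fold change held 0 for all 10 genes. It lay inside a 2-fold change in both directions for OPA1, DNM1L, MFF, POLG2 and TWNK, 5 of the 10, and inside a 4-fold change for all 10. A doubling lay outside the interval of every one of the 10. A 2-fold lower level lay inside the interval of MFN1, MFN2, FIS1, TFAM and POLG.

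**Figure D2:**
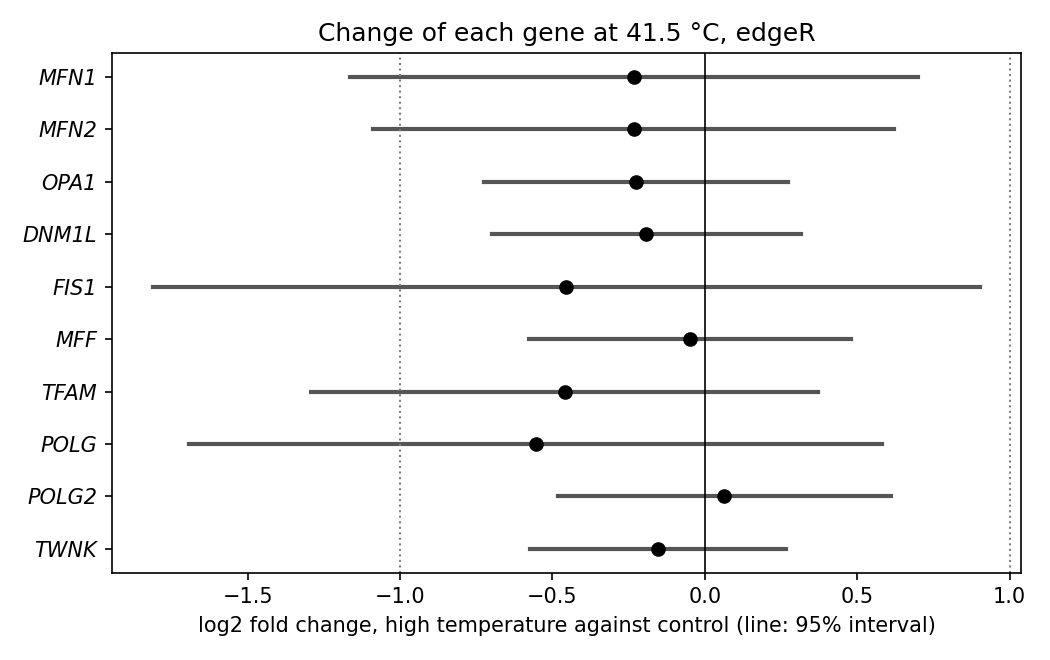
Log2 fold change of each gene at 41.5 °C against 38.5 °C by edgeR (dots) with its 95% interval (lines); dotted verticals mark a 2-fold change. All 10 lines cross 0, and those of FIS1 (-1.81 to 0.90) and POLG (-1.69 to 0.58) are the widest.

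MFN1, on chromosome 13 (117404637 to 117441750, Sscrofa11.1, plus strand), supplied nearly all mitofusin mRNA. It was at 234, 115 and 90.1 CPM in control replicates 1 to 3 and at 175, 116 and 83.7 CPM in high-temperature replicates 1 to 3. Replicate 1 was the highest library of each group and the groups overlapped throughout. The means were 146 ± 77.1 CPM in control libraries and 125 ± 46.1 CPM in heated libraries (SD, n = 3), a log2 fold change of -0.23 (standard error 0.40; edgeR adjusted p = 0.999923). The direction rested on single libraries: it turned to 0.28 when control replicate 1 was left out and to 0.02 when high-temperature replicate 3 was. In contrast it was -0.56 with high-temperature replicate 1 left out, -0.49 with control replicate 3 left out and -0.38 with control replicate 2 left out.

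MFN2, the other mitofusin, lies on chromosome 6 (72026512 to 72056439, plus strand) and was the least abundant of the 10. It had 22, 39 and 29 reads in the control libraries and 33, 26 and 20 reads in the high-temperature libraries. Its level was 1.05 ± 0.261 CPM in control libraries and 0.896 ± 0.238 CPM in heated libraries (SD, n = 3), with a log2 fold change of -0.23 (95% interval -1.09 to 0.62). That value was -0.02 with control replicate 2 or high-temperature replicate 3 left out, -0.37 with control replicate 1 left out and -0.44 with high-temperature replicate 1 left out. MFN1 exceeded MFN2 in every library, by 98.1-fold to 324-fold on the FPKM scale.

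OPA1, on chromosome 13 (130624771 to 130718345, plus strand), was among the steadier members. It was at 168, 128 and 112 CPM in the controls and at 131, 109.9 and 108 CPM in heated libraries. The highest library was again replicate 1 in both groups, and 2 of the 3 high-temperature values lay below all controls. The means were 136 ± 28.8 and 117 ± 12.9 CPM (SD, n = 3), a log2 fold change of -0.23 with an interval from -0.72 to 0.27 (edgeR adjusted p = 0.999923). The fold change was -0.05 with control replicate 1 left out, -0.14 with high-temperature replicate 3 left out and -0.35 with control replicate 3 left out.

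DNM1L, on chromosome 5 (41571054 to 41636058, minus strand), was at 30.2, 37.7 and 41.7 CPM in control libraries and at 26.3, 35.9 and 33.7 CPM in heated libraries. Here replicate 1 was the lowest library of each group, the reverse of the fusion genes MFN1 and OPA1. The means were 36.5 ± 5.85 and 32.0 ± 5.04 CPM (SD, n = 3), a log2 fold change of -0.19 (95% interval -0.70 to 0.31). Leaving out control replicate 3 gave -0.09 and leaving out high-temperature replicate 1 gave -0.07, whereas leaving out control replicate 1 gave -0.31. DNM1L shares 13481 bases of its span with YARS2, the mitochondrial tyrosyl-tRNA synthetase on the opposite strand, and the library kit does not mark strand. The sum of both genes gave a log2 fold change of -0.24 (edgeR adjusted p = 0.999979).

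MFF, the most abundant fission gene, lies on chromosome 15 (128768441 to 128799355, plus strand). It was at 105, 146 and 138 CPM in control libraries and at 97.2, 134 and 145 CPM in heated libraries. As with DNM1L, replicate 1 was the lowest library of each group, and the other 4 libraries lay within 134 to 146 CPM. The log2 fold change was -0.05 (95% interval -0.58 to 0.48), and it was above 0 with library totals as the only scaling (0.038), on the log2(FPKM + 1) scale (0.039), and with control replicate 2 (0.043) or high-temperature replicate 1 (0.10) left out. A second gene annotated as MFF-like, LOC100737339, had 3 reads in all 6 libraries together.

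FIS1, on chromosome 3 (8938250 to 8942102, minus strand), varied most from library to library. It had 504, 314 and 165 reads in the control libraries and 402, 265 and 94 reads in the high-temperature libraries. In CPM these were 19.4, 10.8 and 5.48 against 13.8, 9.21 and 3.07. Within a group the highest library was thus 3.54-fold (controls) or 4.48-fold (high temperature) above the lowest, while the group means, 11.9 ± 7.02 and 8.68 ± 5.36 CPM (SD, n = 3), differed 1.37-fold. The log2 fold change was -0.45 (standard error 0.59; edgeR adjusted p = 0.999923), and it ranged from -0.96 (high-temperature replicate 1 left out) to 0.09 (control replicate 1 left out), with -0.01 when high-temperature replicate 3 was left out and -0.81 when control replicate 3 was. FIS1 overlaps 119 bases of the noncoding gene LOC102164200 on the other strand, which had 0 reads in control replicate 1 and 14 to 20 in the other libraries. Summed with that gene, FIS1 had a log2 fold change of -0.39.

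TFAM, on chromosome 14 (92261713 to 92279731, minus strand), had the most reads of the 10 genes. Control libraries held 17971, 13152 and 9660 of them and high-temperature libraries 13610, 11101 and 6546. Scaled, TFAM was at 691, 453 and 321 CPM in control libraries and at 466, 386 and 214 CPM in heated libraries. The lowest value of all was high-temperature replicate 3 and the highest was control replicate 1, and the remaining 4 libraries interleaved. The means were 488 ± 188 and 355 ± 129 CPM (SD, n = 3), 1.38-fold lower at high temperature. The log2 fold change was -0.46 (standard error 0.36, 95% interval -1.29 to 0.37; edgeR adjusted p = 0.999923). It stayed below 0 without each library in turn, at -0.13 without control replicate 1, -0.16 without high-temperature replicate 3, -0.71 without high-temperature replicate 1 and -0.70 without control replicate 3.

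POLG, the catalytic subunit of the mtDNA polymerase on chromosome 7 (54889150 to 54907167, minus strand), was low and even in 5 of the 6 libraries. It had 136, 137 and 155 reads in control libraries and 132, 30 and 144 in heated libraries. The count of 30 in high-temperature replicate 2 has an exact Poisson 95% interval of 20.2 to 42.8, counting error only, below that of every other library. In CPM the values were 5.23, 4.72 and 5.15 against 4.52, 1.04 and 4.71. POLG was the single member whose groups did not overlap in CPM, 1 of 10 against 7.71% of all genes tested, and by a margin of 4.71 against 4.72. On the FPKM scale the groups overlapped, at 0.872 to 1.05 in control libraries and 0.199 to 0.998 in heated libraries. The log2 fold change was -0.56 (standard error 0.49; edgeR adjusted p = 0.999923) and -0.13 without high-temperature replicate 2. In the other direction, it was -0.83 when high-temperature replicate 3 was left out. FANCI, a DNA repair gene on the opposite strand that overlaps POLG by 843 bases, had 1621 reads in high-temperature replicate 2 and 1414 to 1810 in the other libraries. Summed with its overlapping genes, FANCI and a tRNA gene, POLG had a log2 fold change of -0.15, a sum in which FANCI held most of the reads.

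POLG2, on chromosome 12 (14582075 to 14601576, plus strand), was at 14.2, 14.4 and 20.3 CPM in control libraries and at 15.6, 15.4 and 20.04 CPM in heated libraries. Replicate 3 was the highest library of both groups. The means of 16.3 ± 3.45 and 17.0 ± 2.63 CPM (SD, n = 3) gave a log2 fold change of 0.06 (95% interval -0.48 to 0.61), which was below 0 without control replicate 1 (-0.03), control replicate 2 (-0.02) or high-temperature replicate 3 (-0.04).

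TWNK, on chromosome 14 (112068463 to 112076169, plus strand), was the steadiest of the 10. It was at 89.7, 83.8 and 80.7 CPM in control libraries and at 79.5, 81.9 and 67.0 CPM in heated libraries. The means were 84.8 ± 4.57 and 76.1 ± 8.01 CPM (SD, n = 3), with 81.9 CPM in high-temperature replicate 2 above the lowest control. The log2 fold change was -0.15 (95% interval -0.57 to 0.26; edgeR adjusted p = 0.999923), and -0.04 with high-temperature replicate 3 left out. TWNK overlaps MRPL43, a mitochondrial ribosomal protein gene on the opposite strand, by 1549 bases, and the sum of both gave a log2 fold change of -0.16.

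The members differed in how much they varied between libraries of one group. The replicate standard deviation of log2 CPM, pooled within groups, was 0.12 for TWNK, smaller than in all but 4.44% of the genes tested. It was 0.24 for OPA1 and for DNM1L, 0.25 for POLG2, 0.28 for MFF and 0.35 for MFN2, all below the median of 0.40 over all genes tested. TFAM at 0.57, MFN1 at 0.63, POLG at 0.85 and FIS1 at 1.01 were above it, and FIS1 exceeded 93.8% of the genes. MFN1, OPA1, FIS1 and TFAM were highest in replicate 1 of both groups and lowest in replicate 3 of both, while DNM1L and MFF were lowest in replicate 1 of both. Among all genes tested, 26.7% were highest and 28.1% lowest in replicate 1 of both groups, beside 4 and 2 of these 10.

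**Figure D3:**
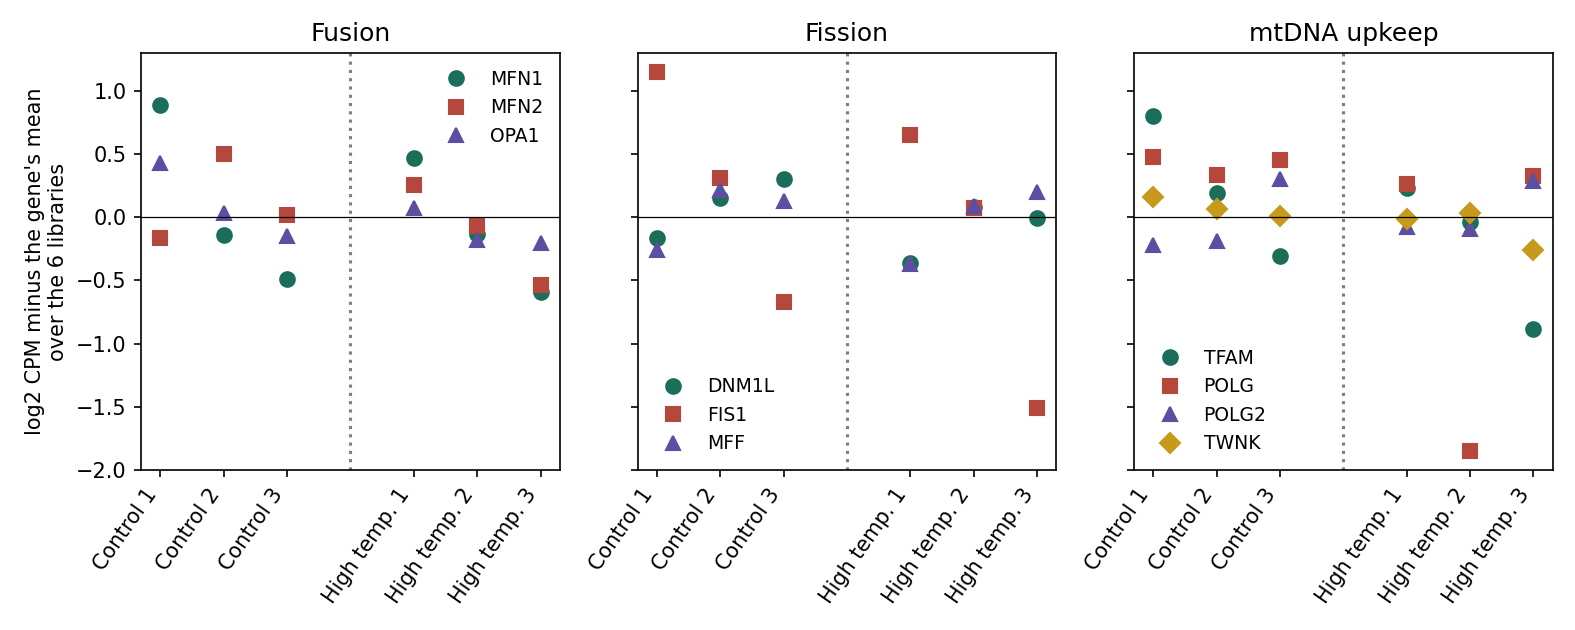
Log2 CPM of each gene minus its own mean over the 6 libraries, for the fusion, fission and mtDNA upkeep genes; each symbol is 1 gene in 1 library, controls left of the dotted line. FIS1 spans the widest range, POLG departs in high-temperature replicate 2 alone, and TFAM and MFN1 lie high in replicate 1 and low in replicate 3 of both groups.

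Balance between roles was compared as log2 ratios of FPKM within each library, with exact permutation tests of 3 against 3 libraries, two-sided, for which the smallest possible p is 0.1. These were 4 ratios, with Benjamini-Hochberg adjustment over them. Summed fusion genes (MFN1, MFN2 and OPA1) were at 62.4, 42.4 and 36.3 FPKM in control libraries and at 54.8, 39.8 and 35.8 FPKM in heated libraries. Summed fission genes (DNM1L, FIS1 and MFF) were at 72.1, 101 and 96.6 FPKM and at 73.8, 92.4 and 101 FPKM. The fission sum exceeded the fusion sum in all 6 libraries, by 1.16-fold to 2.81-fold, with the smallest excess in replicate 1 of each group. That excess rested on MFF, at 50.6 to 88.9 FPKM beside 5.85 to 9.98 FPKM for DNM1L and 3.16 to 15.7 FPKM for FIS1. DNM1L and FIS1 together lay below the fusion sum in all 6 libraries. The log2 ratio of fusion to fission was -0.96 ± 0.65 in control libraries and -1.05 ± 0.55 in heated libraries (SD, n = 3; exact permutation p = 0.7, adjusted 0.933), and the sign of the difference turned without control replicate 1 (0.29) or high-temperature replicate 3 (0.14), while it was -0.39 with high-temperature replicate 1 left out.

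The log2 ratio of MFN1 to MFN2 was 7.24 ± 0.96 in control libraries and 7.30 ± 0.14 in heated libraries (SD, n = 3; exact permutation p = 1, adjusted 1). It rests on 20 to 39 reads of MFN2 per library, and its difference of 0.06 turned to -0.25 or -0.18 when control replicate 2 or 3 was left out, and to -0.02 when high-temperature replicate 1 was, while it was 0.61 with control replicate 1 left out. The polymerase subunits POLG and POLG2 had a log2 ratio of -2.71, -2.89 and -3.26 in control libraries and -2.94, -5.20 and -3.37 in heated libraries. POLG2 was thus 6.56-fold to 36.7-fold above POLG per length, the largest excess being in high-temperature replicate 2. The means were -2.95 ± 0.28 and -3.84 ± 1.20 (SD, n = 3; exact permutation p = 0.2, adjusted 0.6). The difference of -0.88 was -0.20 with high-temperature replicate 2 left out and -1.33 with high-temperature replicate 1 left out.

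TFAM was set against the 13 mRNAs that mtDNA encodes, since TFAM starts their transcription. These mRNAs took 23.6%, 21.0% and 21.5% of all counts in control replicates 1 to 3 and 26.7%, 24.9% and 23.8% in heated libraries. Their summed FPKM did not overlap between groups, at 199242 to 220178 in control libraries and 227359 to 249575 in heated libraries, a difference that was not tested. Neither the shares nor the FPKM carry the TMM factors. Those were 0.865 for control replicate 1, which raises its scaled values, and 1.09 for high-temperature replicate 3, which lowers them. The separation may therefore not hold after TMM scaling. This sum was not computed on that scale. The summed FPKM was 690-fold to 1801-fold that of TFAM, so the ratio carries the difference of this sum as well as that of TFAM. The log2 ratio of TFAM to this sum was -9.43, -9.66 and -10.15 in control libraries and -9.95, -10.13 and -10.81 in heated libraries. It averaged -9.75 ± 0.37 and -10.3 ± 0.46 (SD, n = 3), a difference of -0.55 that overlapped between groups (exact permutation p = 0.3, adjusted 0.6). With 1 library left out in turn the difference ranged from -0.75 (control replicate 3 left out) to -0.29 (high-temperature replicate 3 left out).

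**Figure D4:**
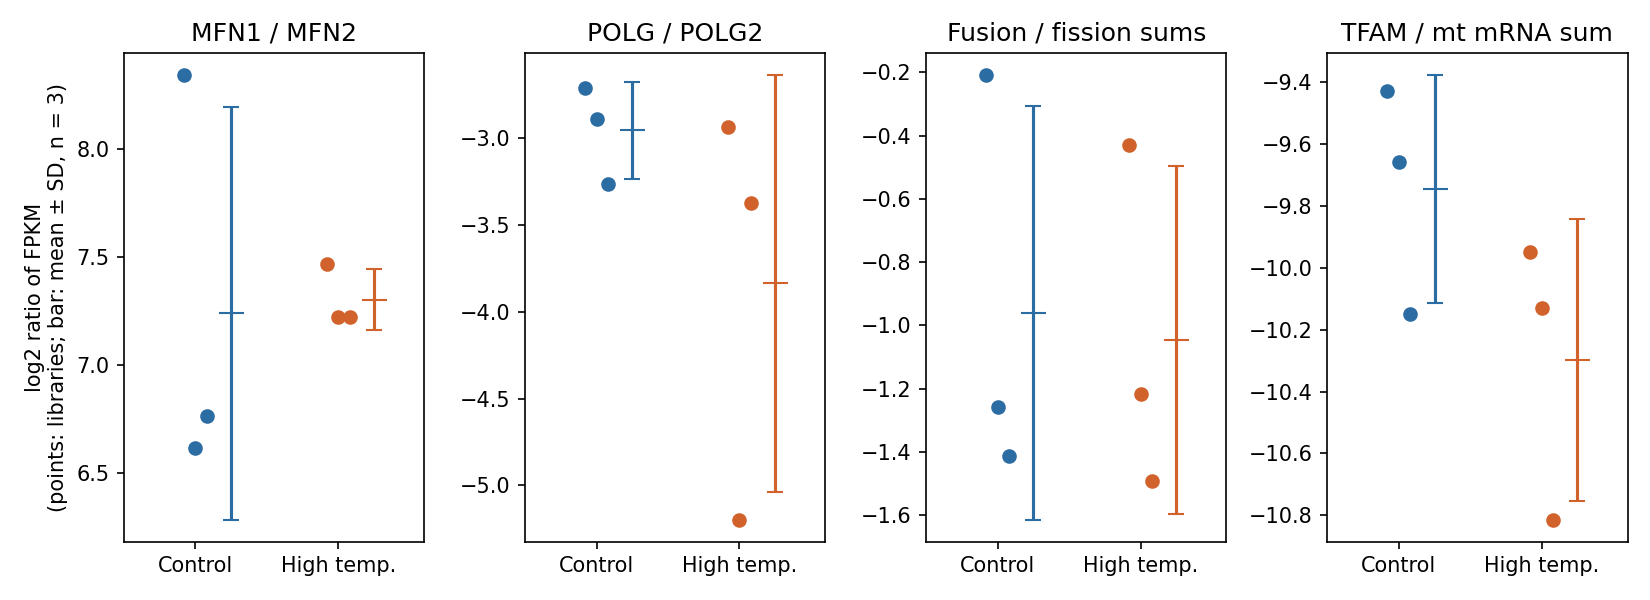
Log2 ratios of FPKM within each library for MFN1 to MFN2, POLG to POLG2, summed fusion to summed fission genes, and TFAM to the summed mitochondrially encoded mRNAs; points are libraries, bars are means ± SD (n = 3), and each panel has its own axis. Control and high-temperature points overlap in all 4 panels, and the lowest POLG to POLG2 point is high-temperature replicate 2 at -5.20.

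The wider machinery around these genes was described in 6 lists, 119 genes of the table in all, of which 112 were tested. None was called by edgeR in either direction, against 0% of all genes tested. PLD6 and ELAC2, 2 of the 112, had an unadjusted edgeR p below 0.05, beside 1.85% of all genes tested. DESeq2 likewise called 0 in each list. The groups did not overlap in CPM for 11 of the 112 (9.82%), beside 7.71% of all genes tested. Of these 11, PLD6, TOP1MT, ELAC2 and FKBP8 were higher in heated libraries, and the rest, LRPPRC among them, were lower.

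Among proteins that assist fusion and fission, 9 of 23 tested members were above 0 and 14 below. Their median log2 fold change was -0.07 and ranged from -0.11 to -0.0026 with 1 library left out in turn. Scaled by library totals alone it was 0.0028, beside 0.08 over all genes tested in that fit. PARL, an inner-membrane rhomboid protease, was the most abundant at 948 ± 357 FPKM in control libraries and 733 ± 190 FPKM in heated libraries (SD, n = 3), with a log2 fold change of -0.44 (95% interval -1.09 to 0.21). MTFR1 and MTFR2, fission regulators, were at 70.9 ± 12.5 and 33.1 ± 1.16 FPKM in control libraries and at 70.1 ± 7.41 and 25.9 ± 2.20 FPKM in heated libraries. MTFR2 did not overlap between groups, at 93.3 to 113 CPM in control libraries and 75.5 to 87.8 CPM in heated libraries (log2 fold change -0.36, edgeR unadjusted p = 0.085). PLD6, a phospholipase of the mitochondrial surface, was at 0.908 ± 0.259 CPM in control libraries and 1.65 ± 0.034 CPM in heated libraries (log2 fold change 0.86, edgeR adjusted p = 0.999923).

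Genes of mtDNA replication, repair and nucleotide supply had 14 of 24 tested members above 0 and 10 below, with a median of 0.03 that was -0.0029 or -0.0067 when control replicate 1 or 2 was left out, and -0.0078 when high-temperature replicate 3 was. It was 0.10 with control replicate 3 left out and 0.07 with high-temperature replicate 1 left out. With library totals as the only scaling it was 0.12, beside 0.08 over all genes tested. On the log2(FPKM + 0.1) scale it was 0.13, beside 0.04 over all genes tested. RRM2B, a ribonucleotide reductase subunit that supplies deoxynucleotides outside S phase, led by level at 162 ± 26.0 FPKM in control libraries and 153 ± 9.30 FPKM in heated libraries (SD, n = 3). SSBP1, which coats single-stranded mtDNA, was at 59.9 ± 27.6 and 48.0 ± 20.4 FPKM, and the pyrimidine nucleotide carrier SLC25A36 at 36.9 ± 3.91 and 37.9 ± 3.45 FPKM. The smallest p belonged to TOP1MT, the mitochondrial topoisomerase, at 1.98 ± 0.591 and 3.08 ± 0.781 CPM, DNA2, a nuclease-helicase, at 20.3 ± 2.53 and 16.5 ± 3.06 CPM, and ENDOG, an endonuclease, at 0.439 ± 0.152 and 0.730 ± 0.366 CPM.

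Genes of mitochondrial transcription and RNA processing had 13 of 16 tested members below 0 and 3 above, with a median of -0.21. Leaving out control replicate 1 moved that median to 0.06, and leaving out high-temperature replicate 3 moved it to -0.06. It was -0.39 when control replicate 3 was left out and -0.32 when high-temperature replicate 1 was. With library totals as the only scaling it was -0.11, beside 0.08 over all genes tested. SLIRP and LRPPRC, which together stabilise mitochondrial mRNA, were at 130.2 ± 71.2 and 20.6 ± 0.525 FPKM in control libraries and at 115 ± 44.8 and 19.5 ± 2.03 FPKM in heated libraries (SD, n = 3). TEFM, the elongation factor of the mitochondrial RNA polymerase, was at 306, 99.7 and 41.3 CPM in control libraries and at 161, 120 and 42.1 CPM in heated libraries, highest in replicate 1 of both groups as TFAM was. PNPT1, an RNA exonuclease, was at 68.5 ± 5.73 CPM in control libraries and 52.5 ± 7.65 CPM in heated libraries, without overlap (log2 fold change -0.38, edgeR unadjusted p = 0.087). ELAC2, which trims the ends of mitochondrial tRNA, was at 0.965 ± 0.258 and 1.98 ± 0.221 CPM (log2 fold change 1.04, edgeR unadjusted p = 0.011), and KIAA0391, the nuclease subunit of mitochondrial RNase P, at 42.5 ± 14.1 and 25.1 ± 9.02 CPM (-0.76, unadjusted p = 0.070).

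Regulators of mitochondrial biogenesis had 7 of 18 tested members above 0 and 11 below. Their median of -0.06 was 0.04 when libraries were scaled by their totals alone, where that over all genes tested was 0.08. The list median was 0.06 without control replicate 1, 0.02 without high-temperature replicate 2 and 0.05 without high-temperature replicate 3. It was -0.13 with either control replicate 2 or high-temperature replicate 1 left out. GABPA and NRF1, transcription factors that are known to drive TFAM and respiratory genes, differed in level: GABPA was at 77.7 ± 25.1 and 70.2 ± 28.5 FPKM, and NRF1 at 25.5 ± 1.61 and 22.3 ± 4.05 CPM, 4.75 FPKM over the 6 libraries (SD, n = 3). MYC was at 35.4 ± 3.97 FPKM in control libraries and 37.8 ± 5.11 FPKM in heated libraries, and the orphan receptor ESRRG at 25.4 ± 3.52 and 28.2 ± 3.96 FPKM. The catalytic subunits of AMP-activated kinase were at 32.8 ± 12.4 and 27.2 ± 4.39 CPM for PRKAA1 and at 0.603 ± 0.167 and 1.003 ± 0.355 CPM for PRKAA2.

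Mitophagy genes had 6 of 18 tested members above 0 and 12 below. Their median was -0.10 and ranged from -0.12 to -0.02 with 1 library left out in turn. Scaled by library totals alone it was 0.0017, beside 0.08 over all genes tested. The receptor TAX1BP1 was the most abundant of the list, at 3141, 3212 and 3256 CPM in control libraries and 2403, 3132 and 2931 CPM in heated libraries, without overlap (log2 fold change -0.18, edgeR unadjusted p = 0.322). FUNDC1, an outer-membrane mitophagy receptor, was at 89.3 ± 37.3 and 63.9 ± 13.1 CPM (SD, n = 3) and the deubiquitinase USP15 at 180.2 ± 10.4 and 166 ± 4.72 CPM. NIPSNAP2 was at 19.9 ± 0.713 and 16.4 ± 2.104 CPM and the anchor protein FKBP8 at 0.226 ± 0.200 and 0.652 ± 0.187 CPM, both without overlap between groups.

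Genes of mitochondrial transport and of outer-membrane tethers had 6 of 14 tested members above 0 and 8 below. Their median was -0.03, and 0.0097 without high-temperature replicate 2. Scaled by library totals alone it was 0.06, beside 0.08 over all genes tested. RHOT1, the GTPase that links mitochondria to motors, was at 33.1 ± 8.74 FPKM in control libraries and 36.0 ± 9.68 FPKM in heated libraries (SD, n = 3). The outer-membrane channels VDAC1 and VDAC3 were at 23.9 ± 6.26 and 39.3 ± 19.5 FPKM in control libraries and at 22.7 ± 4.22 and 28.6 ± 7.74 FPKM in heated libraries. The kinesin KIF5B was at 151 ± 40.7 and 129 ± 13.2 CPM and the tether protein RMDN3 at 2.82 ± 1.09 and 1.905 ± 0.738 CPM.

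**Figure D5:**
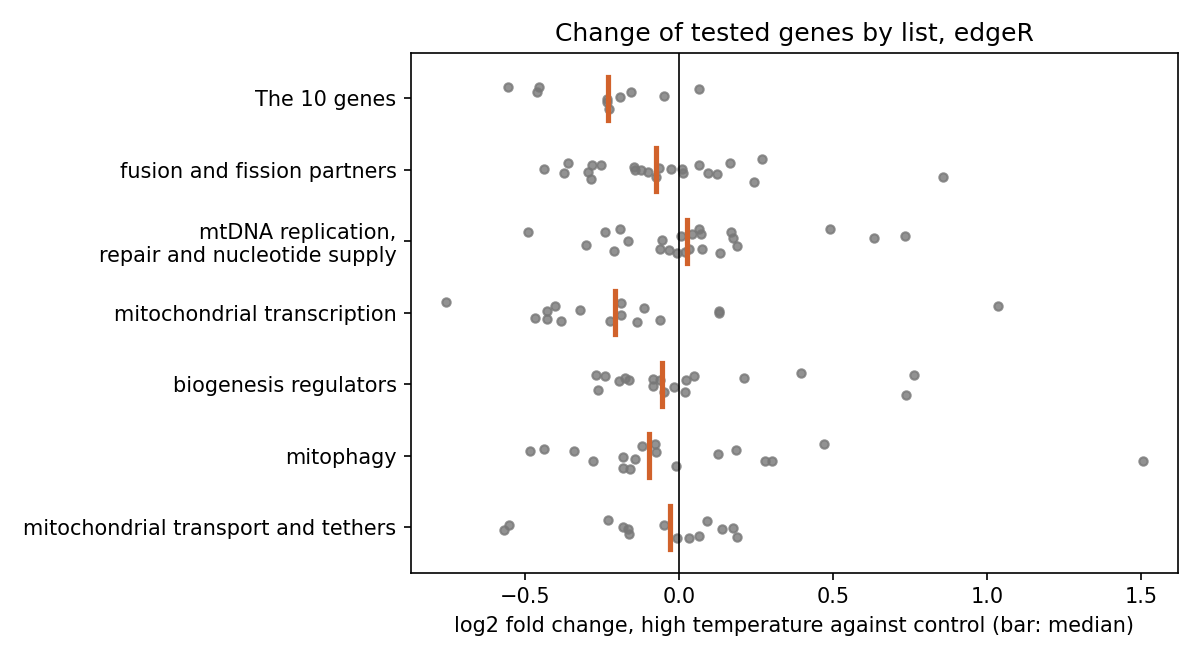
Log2 fold change, high temperature against control, of the 10 genes and of the tested members of each list (dots; bars are medians). The median of the 10 genes lies at -0.23 and those of the lists between -0.21 (mitochondrial transcription) and 0.03 (mtDNA replication, repair and nucleotide supply), and dots of every row lie on both sides of 0.

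The overlap of named list genes with other counted genes limits some of these values, since strand is not marked. MTFR2, SSBP1, DNA2, ENDOG, TEFM, PNPT1, ELAC2, KIAA0391, GABPA, PRKAA2 and NIPSNAP2 each overlap at least 1 other gene of the annotation, and their counts are uncertain to that extent.

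For the most abundant gene of each role, the 3 genes whose pattern over the 6 libraries was most like it were taken by the root mean square difference of log2 CPM, each gene centred on its own mean. For MFN1 these were C6H19orf18 (0.0369), MFAP3 (0.0383) and ZCCHC9 (0.0624), where the median over all genes was 0.638. MFAP3, a microfibril-associated protein, was at 47.5, 24.6 and 19.1 CPM in control libraries and at 37.1, 23.0 and 17.3 CPM in heated libraries, and C6H19orf18 was under 1 CPM in every library. For MFF they were MAP4K5 (0.0260), LOC110257470 (0.0386) and DRC7 (0.0459), with a median over all genes of 0.401. MAP4K5, a kinase, was at 63.4, 91.7 and 81.7 CPM in control libraries and at 58.8, 80.6 and 88.4 CPM in heated libraries. For TFAM they were RBM8A (0.0685), LOC100520183 (0.0696) and TSR2 (0.0722), with a median of 0.633. RBM8A, a core protein of the exon junction complex, was at 1717, 1115 and 792 CPM in control libraries and at 1176, 914 and 592 CPM in heated libraries, the same order of libraries as TFAM. These likenesses are over 6 libraries that share their depth and scaling, and describe these libraries only.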

How the data were processed

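Poly(A) RNA of 3 control and 3 high-temperature libraries was analysed, grouped by their titles. Whole-number read counts per gene, FPKM and TPM were computed and deposited by the authors, per the file headers, and each sample's own table holds FPKM, TPM and coverage, also deposited by the authors. Coverage was not used in a comparison. Per the submitters' processing notes, the tools were StringTie 2.1.3b, HISAT2 2.1.0, Trimmomatic 0.38, Bowtie2 and HISAT, and the build was Sscrofa11.1. Not given in the sources used here are the read counter and its treatment of overlapping genes. Column prefixes of the series table were matched to titles, and 99.2% or more of genes with a value were equal within 1e-05 to the sample's own FPKM, against at most 0.094% in any other column.

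The test was that of edgeR 4.0.16, run in R 4.3.3 on the counts (quasi-likelihood, TMM, default expression filter, group as the single term) over the whole table of 30376 genes, with Benjamini-Hochberg adjustment at 0.05 over the 16056 genes kept. Rows without a symbol (24, at 0.527% to 0.658% of counts) were kept, and an alternative left them out. Standard errors were taken from the fold change and its F statistic. CPM uses TMM-scaled totals. Levels of different genes were compared only in FPKM. Alternatives were DESeq2 1.42.0, other scalings, no filter, limma 3.58.1 on log2(FPKM + 1), log2(TPM + 1) and log2(FPKM + 0.1) for genes averaging at least 1, the replicate number as a block, and leaving out each library. Sums with overlapping genes were added after seeing the data. The fits were also run on simulated counts with known changes. Those counts held no pattern shared by replicate number, so they do not show how the tests behave where libraries share one. Gene positions come from the deposited tables and match RefSeq for Sscrofa11.1.

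The 10 genes and the lists were chosen with earlier results of these data known. From each list the 3 genes with the smallest unadjusted p and the 3 with the highest mean FPKM were named, and for the most abundant gene of each role the 3 genes nearest in pattern. Precision is limited by 3 libraries a group, and the count interval covers counting error only.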

Additional observations from a re-analysis of the deposited data

How the results depend on the processing

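No member was called under any of the 149 alternative fits of the 10 genes, and the smallest adjusted p was 0.36. The direction turned in 12 of the 149. MFN1 was at 0.28 without control replicate 1 and at 0.02 without high-temperature replicate 3, and leaving out 1 library in turn gave -0.557 to 0.28. FIS1 was at 0.089 without control replicate 1, in a range from -0.955 to 0.089. MFF was at 0.038 with library totals as the only scaling, at 0.039, 0.036 and 0.040 on the log2(FPKM + 1), log2(TPM + 1) and log2(FPKM + 0.1) scales, and from -0.178 to 0.104 with 1 library left out (0.043 without control replicate 2, 0.104 without high-temperature replicate 1). POLG2 ranged from -0.041 to 0.25 with 1 library left out, at -0.028, -0.018 and -0.041 without control replicates 1 and 2 and high-temperature replicate 3. MFN2 and POLG fell below the FPKM minimum of 1, and MFN2 also below that of TPM, so these fits gave no value for them. Over all genes tested the median log2 fold change was also above 0 with library totals as the only scaling (0.08). It was 0.03, 0.04 and 0.04 on the log2(FPKM + 1), log2(TPM + 1) and log2(FPKM + 0.1) scales. The cause of the turns in direction was not tested. Among all genes edgeR called 0, DESeq2 called 5, edgeR without a filter called 1 and edgeR with the replicate block called 3.

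The difference of the fusion to fission ratio ranged from -0.39 to 0.29 when 1 library was left out, that of MFN1 to MFN2 from -0.249 to 0.613, that of POLG to POLG2 from -1.33 to -0.201 and that of TFAM to the mitochondrially encoded mRNAs from -0.754 to -0.294. The numbers of the replicates are not said to mark a shared culture. Across all genes tested, deviations of same-numbered libraries from their group means had r = 0.516, 0.008 and 0.586 for numbers 1, 2 and 3. For the 8649 genes averaging at least 4 CPM, r was 0.722, -0.0542 and 0.79. Between numbers 1 and 3 it was -0.566 and -0.521 over all genes tested. Control replicate 2 did not correlate best with its own number. With the replicate block TFAM (-0.46, edgeR unadjusted p = 0.0032, adjusted 0.36) and FIS1 (-0.51, 0.016, adjusted 0.457) had an unadjusted p below 0.05, beside 9.25% of all genes, and no member was called. At 20 to 39 reads, MFN2 allows no finer statement than its interval.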
